A study of Mus musculus with 6 samples.

Results

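Hepatocyte identity is held by a small network of transcription factors that bind each other's genes and those of the liver's secreted proteins and metabolic enzymes. HNF4A is a nuclear receptor required for much of the adult hepatocyte program. The forkhead factors FOXA1, FOXA2 and FOXA3 open liver chromatin, the cut-homeodomain factor ONECUT1 (HNF6) and the homeodomain factor PROX1 act with them, and the bZIP factors C/EBP-alpha, C/EBP-beta and C/EBP-delta bind a common motif. C/EBP-alpha is known for quiescent, metabolic hepatocytes, while C/EBP-beta and C/EBP-delta are induced by interleukin-6 and interleukin-1 in the acute-phase response. The genes Hnf4a, Foxa1, Foxa2, Foxa3, Cebpa, Cebpb, Cebpd, Onecut1 and Prox1 were taken by name. All 9 were found among 15454 genes of the count table and among 21948 rows of the FPKM table, and all 9 were among the 12411 genes that passed the filter on low counts and were tested.

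The livers came from male C57BL/6 mice aged 8 to 10 weeks. Every mouse in both groups underwent partial warm hepatic ischemia and reperfusion (I/R). The 3 I/R mice received vehicle, and the 3 I/R+Rk2 mice received ginsenoside Rk2, a ginseng saponin, in vehicle before the operation and again at reperfusion. No sham-operated liver was analysed here, so a difference is between treated and untreated injured livers. The deposited counts summed to between 16809613 and 35618074 per library, and 3 counts corresponded to 0.0888 to 0.184 CPM, the count scaled to a common library size. All values are from whole-liver RNA, in which fewer cells of a type and less RNA per cell cannot be told apart.

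Hnf4a and Cebpb were lower, and Cebpa was higher, in I/R+Rk2 than in I/R livers. These 3 members were the ones called at an edgeR adjusted p below 0.05, which is 33.3% of the 9, while 43.9% of all genes tested were called. The share of all genes called higher was 20.3%, to be set against 1 member, and the share called lower was 23.7%, to be set against 2 members. With a fold change above 2 also required, 0 of the 9 members were called, against 14.6% of all genes (3.17% higher and 11.4% lower). The CPM values of the groups did not overlap in the same 3 members and in 57.4% of all genes. The median log2 fold change was -0.14 over the members and -0.0076 over all genes tested.

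The upstream sequences of the 3 called genes are shown because their transcripts are the members that differed. They are the 250 bases before the start sites given by RefSeq on GRCm38.p6, written 5′ to 3′ on the gene's strand. Capitals mark matches to 9 short motifs on either strand. The TATA box was searched as TATAAA. For C/EBP factors the letters were TTNNGNAA, for HNF4 they were CAAAGNCCA and for FOXA factors TGTTTAC. The ONECUT motif was written ATNGAT, and the cyclic AMP response element was represented by its core, TGACG. STAT sites were searched as TTCNNNGAA and the E-box as CACGTG, and a motif for NF-kB was the last of them. RefSeq windows were found for 8 of the 9 members, all but Cebpd.
Hnf4a upstream start, chr2:163506607-163506856, plus strand: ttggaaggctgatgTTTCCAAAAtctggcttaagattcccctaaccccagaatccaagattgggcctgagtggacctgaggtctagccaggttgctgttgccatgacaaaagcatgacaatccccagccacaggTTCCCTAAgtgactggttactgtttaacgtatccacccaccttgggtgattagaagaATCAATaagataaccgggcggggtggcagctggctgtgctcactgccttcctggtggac
Hnf4a downstream start, chr2:163546905-163547154, plus strand: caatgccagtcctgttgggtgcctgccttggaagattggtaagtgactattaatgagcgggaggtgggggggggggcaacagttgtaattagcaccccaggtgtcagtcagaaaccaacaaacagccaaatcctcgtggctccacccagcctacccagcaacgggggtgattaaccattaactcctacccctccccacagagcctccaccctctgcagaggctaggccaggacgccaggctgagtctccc
Cebpa, chr7:35119043-35119292, plus strand: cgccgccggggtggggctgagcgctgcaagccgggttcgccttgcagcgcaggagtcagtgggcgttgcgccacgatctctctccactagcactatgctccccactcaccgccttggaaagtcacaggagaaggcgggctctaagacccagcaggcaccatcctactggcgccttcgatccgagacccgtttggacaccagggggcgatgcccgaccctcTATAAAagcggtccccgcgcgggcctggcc
Cebpb, chr2:167688665-167688914, plus strand: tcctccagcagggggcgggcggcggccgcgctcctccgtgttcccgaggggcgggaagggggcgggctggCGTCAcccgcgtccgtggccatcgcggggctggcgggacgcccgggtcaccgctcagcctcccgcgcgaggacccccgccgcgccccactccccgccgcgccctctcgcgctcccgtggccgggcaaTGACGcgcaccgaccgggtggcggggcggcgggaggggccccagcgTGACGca
Cebpa held a TATA box 30 bases before its start, and 12.4% of 32851 mouse promoter windows held one anywhere in the same length. Cebpb held 3 matches to TGACG, beginning 180, 53 and 7 bases before its start, the first of them on the opposite strand, and 17.8% of windows held at least 1. Its window was 81.6% G and C. The upstream Hnf4a window held 3 C/EBP matches, a pair of which overlap, and 1 ONECUT match, found in 36.8% and 18.9% of windows. The downstream Hnf4a window, the P1 promoter that adult hepatocytes mainly use, held none of the 9 motifs as written. A match is a string of letters and no evidence of binding.

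Hnf4a (chr2:163506808-163572910 on mm10, plus strand) stood at 639, 680 and 662 CPM in I/R replicates 1 to 3 and at 414, 502 and 464 CPM in I/R+Rk2 replicates 1 to 3. The highest I/R+Rk2 liver lay below the lowest I/R liver. The log2 fold change was -0.52 (standard error 0.099, edgeR adjusted p = 0.00583), that is 1.44-fold lower. Its 95% interval ran from -0.75 to -0.29. On the FPKM scale, which divides by transcript length, Hnf4a was 179 ± 6.49 in I/R and 100.4 ± 1.97 in I/R+Rk2 (SD, n = 3), which is 1.79-fold lower. The difference kept its sign and its call in all 20 alternative fits, but its size ranged from -0.84 to -0.39 on the log2 scale. The smallest value came when the trend of each library with transcript length was removed, and the largest with limma on log2(FPKM + 0.1).

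Counts and FPKM of the same liver together give the transcript length that the authors' quantification assigned to a gene. For Hnf4a it was 3701, 3595 and 3656 bases in I/R replicates 1 to 3 and 3855, 4355 and 3969 bases in I/R+Rk2 replicates 1 to 3. Every I/R+Rk2 liver thus had a longer implied length than every I/R liver, with means of 4059 ± 262 and 3651 ± 53.3 bases. The groups were likewise apart in 15.4% of 7588 genes with at least 100 counts in every library. GENCODE M21 lists 5 Hnf4a transcripts, of which 2 are full-length forms of 4362 and 4356 bases and the others measure 692, 659 and 431 bases. An implied length below that of the full-length forms can arise when part of the FPKM is assigned to short transcripts. The gene-level values do not separate the transcripts, so whether this was the case here was not tested. The log2 ratio of group means for Hnf4a was -0.84 in FPKM and -0.52 in CPM, and the log2 ratio of implied lengths was 0.15. FPKM is not TMM-scaled, and Cebpb and Cebpa, whose implied lengths did not vary between groups, were also lower in FPKM (-0.67 and 0.50) than in CPM (-0.50 and 0.66).

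**Figure D1:**
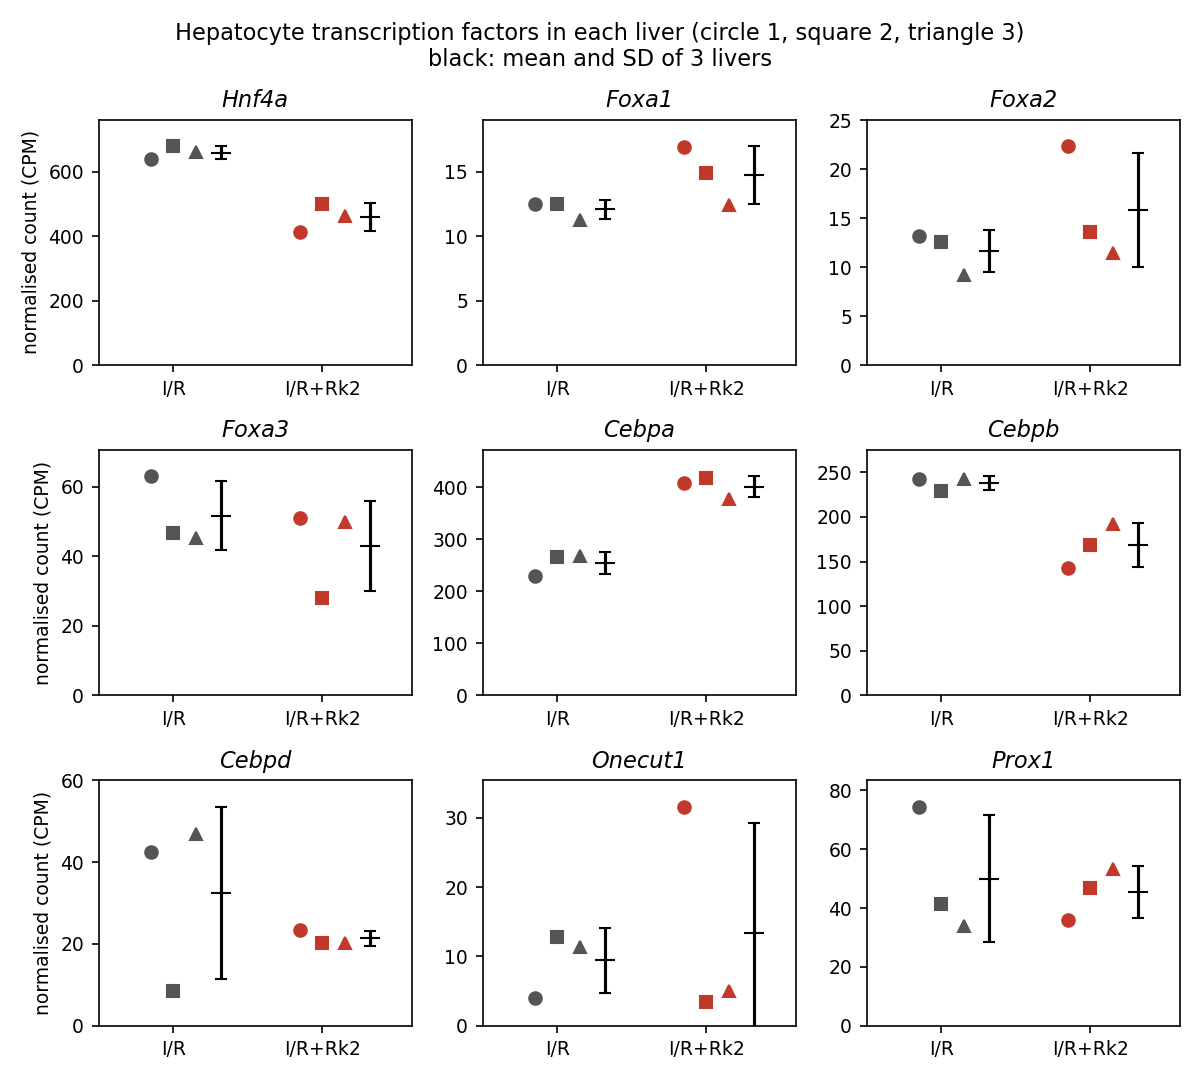
Normalised counts (CPM, vertical axis from 0) of the 9 transcription factors in each liver, by group and replicate, with the mean and SD of 3 livers in black (the lower SD bar of Onecut1 in I/R+Rk2 is cut off at 0). The groups do not overlap in Hnf4a, Cebpa and Cebpb, while 1 liver stands far from the other two in Cebpd (I/R 2) and in Onecut1 (I/R+Rk2 1).

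Cebpa (chr7:35119293-35121928, plus strand), the gene of C/EBP-alpha, had 229, 266 and 267 CPM in the I/R livers and 408, 417 and 378 CPM in the I/R+Rk2 livers. All I/R+Rk2 values lay above all I/R values, and the distance between the groups was larger than the spread within either. The log2 fold change was 0.66 (standard error 0.096, edgeR adjusted p = 0.00231), a 1.58-fold rise with a 95% interval of 0.43 to 0.88. In FPKM, Cebpa was 95.8 ± 2.14 in I/R and 136 ± 10.1 in I/R+Rk2. The call held in all 20 alternatives, with log2 fold changes of 0.50 to 0.71. Its implied transcript length was between 2624 and 2625 bases in every liver.

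Cebpb (chr2:167688915-167690418, plus strand), a gene of 1 exon that encodes C/EBP-beta, moved the other way. It had 242, 229 and 242 CPM in the I/R livers and 143, 169 and 193 CPM in the I/R+Rk2 livers, again without overlap. The log2 fold change was -0.50 (standard error 0.12, edgeR adjusted p = 0.0129), 1.42-fold lower, with a 95% interval of -0.78 to -0.23. The call was lost in 1 of 20 alternatives, without I/R replicate 1, where the adjusted p was 0.0507 and the log2 fold change -0.48. Cebpb shares 312 bases with Tmem189 on the opposite strand, and without a stated strand setting their reads cannot be told apart. Tmem189 had 222 to 523 counts against 3135 to 6081 for Cebpb, and the summed counts of both genes gave -0.53 (edgeR adjusted p = 0.0101).

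Cebpd (chr16:15887286-15891031, plus strand), for C/EBP-delta, had 42.5, 8.39 and 46.8 CPM in the I/R livers and 23.5, 20.2 and 20.3 CPM in the I/R+Rk2 livers. I/R replicate 2 lay below all other livers, while the other two I/R livers lay above all I/R+Rk2 livers. The log2 fold change was -0.61 (standard error 0.54) and did not pass, with an edgeR adjusted p of 0.388. Without I/R replicate 2 it was -1.07 with an adjusted p of 0.00284, and the adjusted p of Cebpd was above 0.05 in the other 19 alternatives. Cebpd overlaps 562 bases of Spidr on the opposite strand, and the sum of both genes did not pass either (-0.64, edgeR adjusted p = 0.271).

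Within each liver, the balance between Cebpb and Cebpa can be given without any scaling between libraries. Cebpb FPKM was 1.85, 1.503 and 1.58 times Cebpa FPKM in I/R replicates 1 to 3, and 0.612, 0.706 and 0.889 times in I/R+Rk2 replicates 1 to 3. Cebpb therefore exceeded Cebpa in every I/R liver and was below it in every I/R+Rk2 liver. The mean log2 ratio was 0.71 ± 0.15 in I/R and -0.46 ± 0.27 in I/R+Rk2 (SD, n = 3), a 2.25-fold difference. A two-sided exact permutation test gave p = 0.1, which is the smallest that 3 against 3 livers allow, and 0.5 after adjustment over the 5 ratios computed. The other 4 ratios, Cebpd to Cebpa, Foxa1 to Foxa2, Foxa3 to Foxa2 and Onecut1 to Hnf4a, had exact permutation p values of 0.4, 0.7, 0.2 and 0.6, and their groups overlapped. The summed FPKM of Cebpa, Cebpb and Cebpd was 262 ± 16.1 in I/R and 240.4 ± 4.43 in I/R+Rk2. Of that sum, Cebpb made up 59.98% ± 1.86 in I/R and 41.2% ± 4.66 in I/R+Rk2, and Cebpa 36.7% ± 3.005 and 56.5% ± 4.23.

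**Figure D2:**
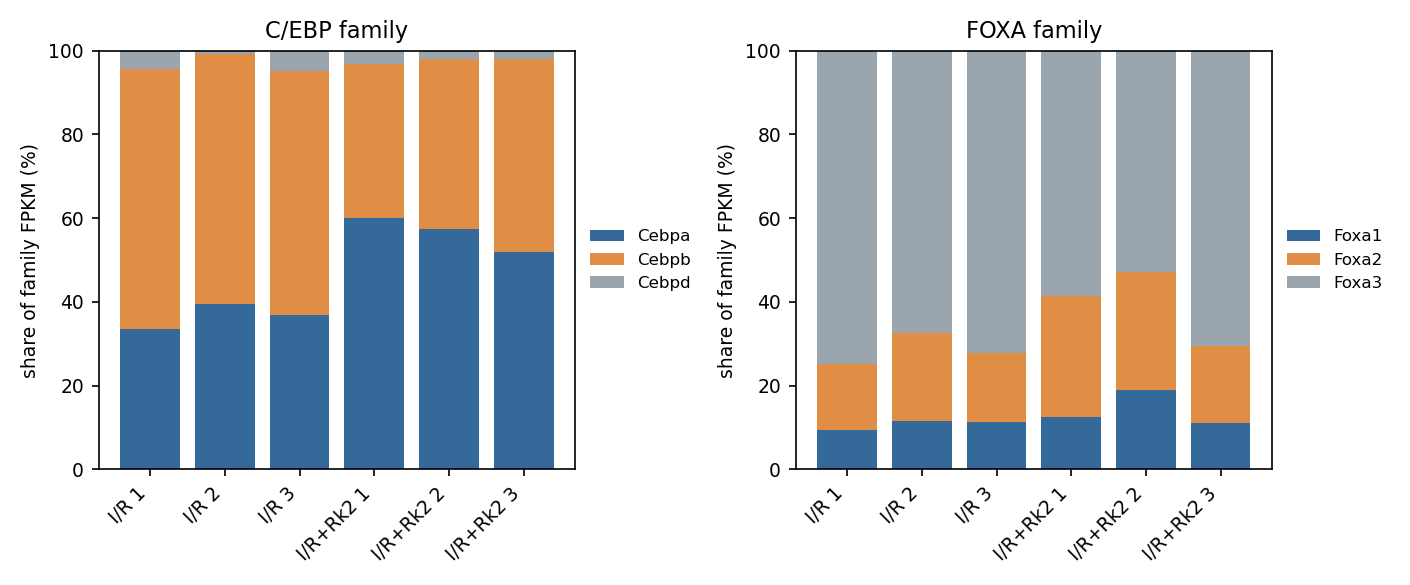
Share (%) of each gene in the summed FPKM of the C/EBP family (Cebpa, Cebpb, Cebpd; left) and of the FOXA family (Foxa1, Foxa2, Foxa3; right), 1 bar per liver. Cebpb is the largest share in the 3 I/R livers and Cebpa in the 3 I/R+Rk2 livers, while Foxa3 is the largest FOXA share in all 6 livers.

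The forkhead genes were not called. Foxa3 (chr7:19013284-19023538, minus strand), the most abundant of them, had 63.0, 46.6 and 45.3 CPM in the I/R livers and 50.9, 27.9 and 49.8 CPM in the I/R+Rk2 livers. The groups overlapped, the lowest value being that of the second I/R+Rk2 liver. The Foxa3 log2 fold change was -0.27 (standard error 0.25, edgeR adjusted p = 0.400), but it was -0.092 with the first I/R liver left out and -0.032 with the second I/R+Rk2 liver left out. Foxa2 (chr2:148042877-148046969, minus strand), a pioneer factor also known for glucose and lipid genes, had 13.2, 12.6 and 9.17 CPM in I/R and 22.4, 13.6 and 11.4 CPM in I/R+Rk2. The first I/R+Rk2 liver stood above the other five, and the log2 fold change was 0.44 (standard error 0.27, edgeR adjusted p = 0.216). Without that liver it was 0.10. Foxa1 (chr12:57540628-57546916, minus strand) had 12.5, 12.5 and 11.2 CPM in I/R and 16.9, 14.9 and 12.4 CPM in I/R+Rk2. Only the lowest I/R+Rk2 liver overlapped the I/R livers, and the log2 fold change of 0.29 (95% interval -0.038 to 0.62) did not pass (edgeR adjusted p = 0.131). Foxa3 made up 71.5% ± 3.74 of the summed FOXA FPKM in I/R and 60.7% ± 8.95 in I/R+Rk2, with sums of 35.3 ± 7.81 and 30.6 ± 8.09 FPKM.

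Onecut1, Prox1 and Cebpd had the largest coefficients of variation in I/R (50.3%, 43.3% and 64.6%). In I/R+Rk2 Onecut1 again had the largest (119%), but Prox1 (19.3%) and Cebpd (8.61%) lay below Foxa2 (36.6%) and Foxa3 (30.3%). Onecut1 (chr9:74861921-74891781, plus strand) had 4.01, 12.8 and 11.4 CPM in I/R and 31.6, 3.46 and 4.97 CPM in I/R+Rk2. A single liver, I/R+Rk2 replicate 1, was 9.14-fold above the lowest of its group. The fitted log2 fold change, 0.50 with a standard error of 0.84, did not pass (edgeR adjusted p = 0.654) and turned to -1.20 without that liver. Its implied transcript length ranged from 1977 to 3971 bases, and it overlaps 2171 bases of the same-strand noncoding gene Gm20649, so its level is uncertain. Prox1 (chr1:190118035-190170714, minus strand), which in the liver marks hepatocytes and is also used by lymphatic endothelium, had 74.6, 41.3 and 34.0 CPM in I/R and 36.0, 46.9 and 53.4 CPM in I/R+Rk2. The groups overlapped, and the log2 fold change was -0.14 (95% interval -0.83 to 0.56, edgeR adjusted p = 0.731). Its sign turned in 4 of 20 alternatives, to 0.28 without I/R replicate 1 among them. The 5 lymphatic endothelial markers summed to 49.99 to 54.0 CPM in I/R and 45.3 to 52.3 CPM in I/R+Rk2, with 0 called higher and 1, Pdpn, called lower. Reln held most of these sums (30.1 to 32.7 CPM in I/R and 24.9 to 28.2 CPM in I/R+Rk2), so they say little of the other markers. The intervals of Onecut1, Cebpd and Foxa2 reached beyond a 2-fold change in at least 1 direction, so changes of that size in these genes lay within the error of 3 livers a group.

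**Figure D3:**
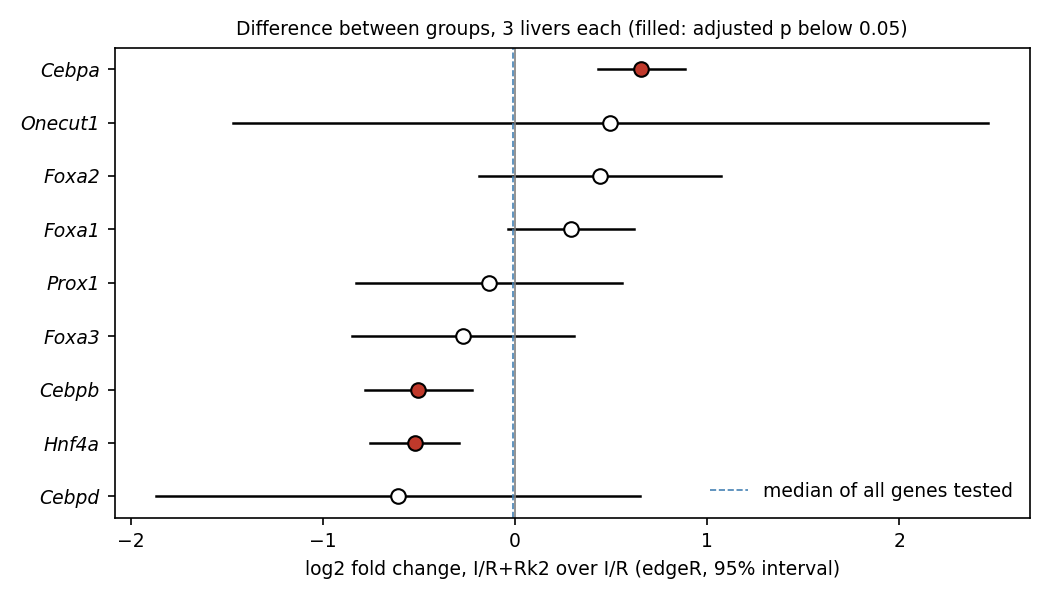
Log2 fold change (I/R+Rk2 over I/R, edgeR) of the 9 genes with 95% intervals as bars, filled where the adjusted p was below 0.05. The intervals of Cebpa, Cebpb and Hnf4a lie clear of 0, the other 6 cross it, and the dashed line is the median of all genes tested (-0.0076).

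Levels between genes were compared in FPKM. In all 3 I/R livers the order began Hnf4a, Cebpb, Cebpa and Foxa3, with group means of 179, 157, 95.8 and 25.4 FPKM. In all 3 I/R+Rk2 livers Cebpa stood first, at a mean of 136 FPKM, ahead of Hnf4a at 100.4 and Cebpb at 98.98 FPKM. Hnf4a and Cebpb did not differ beyond their spread there, since Cebpb was above Hnf4a in I/R+Rk2 replicate 3. Hnf4a and Cebpb also exchanged places in I/R when CPM was divided by the longest annotated transcript (151 and 158 CPM per kilobase), whereas Cebpa stood first in I/R+Rk2 on that scale too (153 CPM per kilobase). Foxa3 followed these 3 genes in all 6 livers. The remaining genes had group means between 2.50 and 8.92 FPKM, and their order differed from liver to liver. Relative to the 15465 genes with FPKM above 0 in any liver, Hnf4a moved from the 97.8th percentile in I/R to the 95.9th in I/R+Rk2, Cebpb from the 97.5th to the 95.8th and Cebpa from the 95.99th to the 96.97th.

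**Figure D4:**
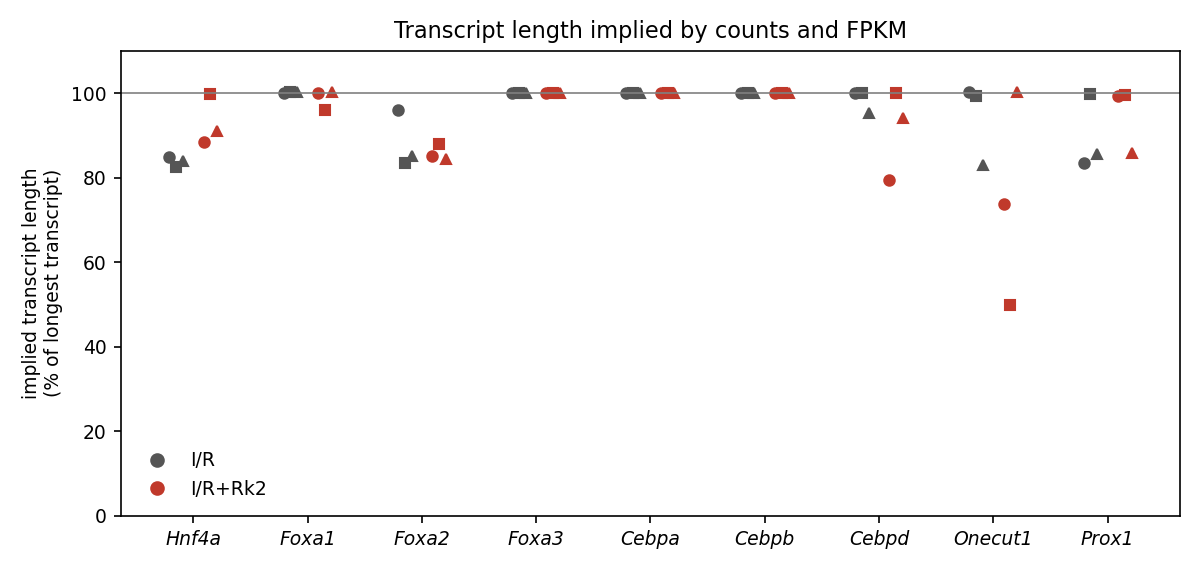
Transcript length implied by each liver's counts and FPKM (% of the longest GENCODE transcript, vertical axis from 0) for the 9 genes, with I/R livers in grey and I/R+Rk2 livers in red (circle, square and triangle are replicates 1, 2 and 3). The Hnf4a groups do not overlap (3595 to 3701 against 3855 to 4355 bases), Cebpa, Cebpb and Foxa3 are at full length in every liver, and Onecut1 is spread from 1977 to 3971 bases.

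The other hepatocyte transcription factors were mostly called higher or not called. Of 29 tested, 11 were higher and 1 lower in I/R+Rk2, with a median log2 fold change of 0.30 beside -0.0076 for all genes. The share called, 41.4%, was near the 43.9% of all genes. With limma on log2(FPKM + 1), 7 were higher and 2 lower. The farnesoid X receptor gene Nr1h4, the bile acid sensor, rose from 42.0 ± 3.01 to 80.3 ± 1.55 CPM (0.94, edgeR adjusted p = 0.000501). Atf5, a stress-responsive bZIP factor, rose from 185 ± 8.55 to 293 ± 15.5 CPM (0.66, edgeR adjusted p = 0.00137). Xbp1, a driver of secretory capacity, was the 1 gene called lower, from 561 ± 96.4 to 255 ± 85.7 CPM.

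Among 11 partners and regulators of the C/EBP factors, 1 was called higher and 4 lower, with a median log2 fold change of -0.21. The share called, 45.5%, was near the 43.9% of all genes. Trib1 and Trib2, pseudokinases that direct C/EBP-alpha to degradation, were both lower. Trib1 fell from 222 ± 3.49 to 112 ± 3.33 CPM (-0.98, edgeR adjusted p = 0.000287) and Trib2 from 6.31 ± 1.16 to 1.54 ± 0.107 CPM (-2.03, edgeR adjusted p = 0.000629). Cebpz, a nuclear factor named for CCAAT binding, fell from 36.2 ± 5.25 to 18.2 ± 1.10 CPM. Cebpg, a dimer partner of other C/EBP factors, was also lower (-0.47) and Cebpe, a C/EBP gene of granulocytes, was the 1 called higher (1.08, edgeR adjusted p = 0.00804), at 2.13 ± 0.217 and 4.50 ± 1.01 CPM.

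Of 11 genes upstream of Cebpb and Cebpd, 6 were lower and 2 higher (72.7% called, against 43.9% of all genes), with a median of -0.76. The list held Creb1 and genes of the interleukin-1, tumour necrosis factor, interleukin-6 and glucocorticoid signals. Il1b, the cytokine, fell from 99.9 ± 2.91 to 11.4 ± 5.16 CPM (-3.13, edgeR adjusted p = 0.000568). Its receptor gene Il1r1 fell from 357 ± 26.0 to 69.1 ± 28.9 CPM, and the tumour necrosis factor receptor gene Tnfrsf1a from 182 ± 11.4 to 88.5 ± 7.62 CPM. Il6, Stat3 and Jak1 were the others called lower. The glucocorticoid receptor gene Nr3c1 (0.34) and Creb1 (1.32) were called higher, but 0 genes of the list were called higher without I/R replicate 3, and 1 was without I/R replicate 1 or 2 or without I/R+Rk2 replicate 2 or 3. The acute-phase genes, which C/EBP-beta, C/EBP-delta and STAT3 are known to activate, were lower in 13 of 20 cases (65.0%, against 23.7% of all genes) and higher in 0, with a median of -0.58. Lcn2 fell from 633 ± 167 to 48.8 ± 11.9 CPM, Saa2 from 1680 ± 284 to 169 ± 65.1 CPM and Serpina3n from 1746 ± 513 to 318 ± 23.9 CPM. Saa1 and Saa2 are near-identical copies, so the division of reads between them is uncertain.

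Genes known as targets of HNF4A were mostly higher, while Hnf4a itself was lower. Of 27, 18 were called higher and 1 lower, with a median log2 fold change of 0.45, while 20.3% of all genes were called higher. G6pc, the last enzyme of glucose release, rose from 174 ± 22.1 to 755 ± 195 CPM (2.12, edgeR adjusted p = 0.000593). Cyp8b1, which makes cholic acid, rose from 76.6 ± 21.2 to 259 ± 39.1 CPM (1.76, edgeR adjusted p = 0.00112). Ttr, the thyroxine carrier transthyretin, rose from 3862 ± 363 to 8067 ± 775 CPM (1.06, edgeR adjusted p = 0.00132). Apoa4, an apolipoprotein, was the 1 target called lower, from 402 ± 52.9 to 236 ± 58.0 CPM.

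Known targets of FOXA factors were called higher in 7 of 13 cases and lower in 1 (Igfbp1, an insulin-repressed binding protein, -0.62), with a median of 0.40. Of all genes tested, 20.3% were called higher and 23.7% lower. Known targets of C/EBP-alpha were higher in 7 of 10 cases and lower in 0, with a median of 0.48, and F9, coagulation factor IX, rose from 134 ± 8.37 to 192 ± 20.9 CPM. The lists share members, with 4 genes, G6pc and Ttr among them, in all 3, so that they hold 36 different genes, of which 22 were higher and 2 lower. Over the alternatives, the number called higher ran from 10 to 19 for HNF4A targets, 4 to 7 for FOXA targets and 3 to 8 for C/EBP-alpha targets. Without I/R+Rk2 replicate 2, 4 FOXA targets and 3 C/EBP-alpha targets were called higher, and without I/R replicate 1 or I/R+Rk2 replicate 3, 4 C/EBP-alpha targets were.

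**Figure D5:**
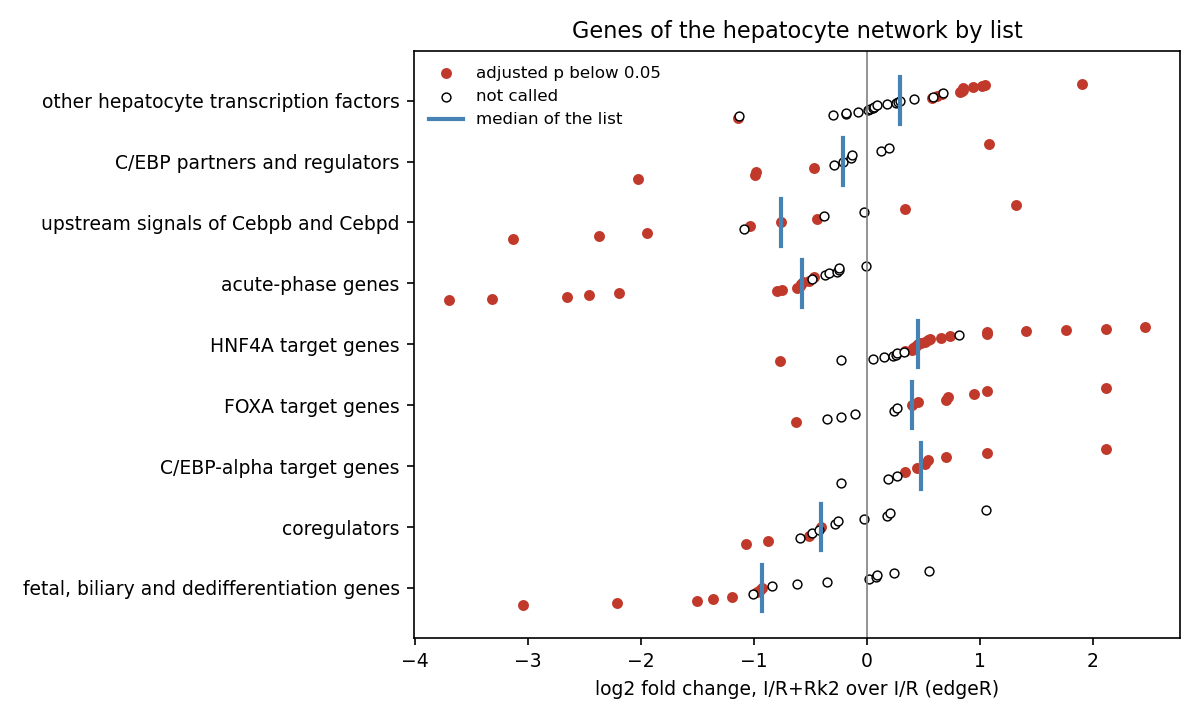
Log2 fold change (I/R+Rk2 over I/R, edgeR, horizontal axis) of every tested gene in 9 lists around the hepatocyte factors, filled where the adjusted p was below 0.05, with the median of each list as a blue bar. The 3 target lists have medians of 0.40 to 0.48, while the acute-phase and upstream signal lists have medians of -0.58 and -0.76.

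Coregulators of these factors were lower in 4 of 13 cases and higher in 0, with a median of -0.41. The share called, 30.8%, was below the 43.9% of all genes, of which 23.7% were called lower. With the trend of each library with transcript length removed, 2 were lower and 3 higher and the median was -0.036. The histone acetyltransferase gene Ep300 fell from 27.1 ± 3.62 to 14.8 ± 1.34 CPM, the demethylase gene Kdm1a from 25.3 ± 4.29 to 12.0 ± 1.93 CPM and the Mediator subunit gene Med1 from 24.2 ± 1.21 to 17.0 ± 0.851 CPM. Fetal, biliary and dedifferentiation genes were lower in 8 of 17 cases and higher in 0, with a median of -0.93. The share called was 47.1%, near that of all genes, of which 23.7% were called lower and 20.3% higher. Spp1, Epcam, Sox9, Krt7 and Krt19 of this list are also counted among the cholangiocyte markers. Klf6, an early injury factor, fell from 127 ± 17.2 to 44.9 ± 1.46 CPM, Runx1, a factor also of blood cells, from 6.47 ± 0.985 to 0.751 ± 0.332 CPM, and Zeb1, a mesenchymal repressor, from 20.5 ± 2.29 to 8.01 ± 1.40 CPM. The fetal gene Afp was at 1.17 ± 0.0739 and 1.36 ± 0.867 CPM and did not pass (edgeR adjusted p = 0.685).

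Markers of the cell types in the liver moved between the groups as well, while 20.3% of all genes tested were called higher and 23.7% lower. Of 12 hepatocyte markers, 8 were called higher and 0 lower, and their summed level was 70028 to 82032 CPM in I/R and 105184 to 129973 CPM in I/R+Rk2. Alb, Apob, Ttr, Tat, Cps1 and Cyp3a11 are also in the target lists. Of 9 tested neutrophil markers, 7 were lower, with sums of 495 to 609 CPM in I/R and 90.8 to 215 CPM in I/R+Rk2, and Camp was not in the count table. Of 8 monocyte markers, 8 were lower, with sums of 1597 to 1920 CPM in I/R and 1128 to 1184 CPM in I/R+Rk2, and without the widely expressed Fn1, which holds most of that sum, the other 7 summed to 175 to 206 CPM in I/R and 9.65 to 17.2 CPM in I/R+Rk2. Kupffer cell markers summed to 81.1 to 126 CPM in I/R and 64.9 to 79.0 CPM in I/R+Rk2, with 2 of 9 lower, near the share of all genes. Of 8 cholangiocyte markers 3 were lower and 1 higher (sums of 173 to 239 and 97.9 to 132 CPM). Spp1 held most of these sums (132 to 192 CPM in I/R and 55.0 to 82.7 CPM in I/R+Rk2), so they say little of the other markers. Of 9 sinusoidal endothelial markers 2 were lower and 4 higher (156 to 172 and 169 to 208 CPM). Of 8 stellate markers 3 were lower and 0 higher (150 to 179 and 116 to 179.6 CPM). Dcn was the largest part of the stellate sum in every liver (84.9 to 120 CPM in I/R and 67.4 to 69.1 CPM in I/R+Rk2). The highest I/R+Rk2 sum, in replicate 3, also held 59.3 CPM of Col3a1. T and NK cell markers summed to 0.365 to 0.976 CPM in I/R and 0.737 to 1.303 CPM in I/R+Rk2 and 0 were tested, and Trbc2 and Ncr1 were not in the count table. The summed hepatocyte markers, like Cebpa, were higher in I/R+Rk2, where Hnf4a was lower. The summed neutrophil and monocyte markers were lower in I/R+Rk2, as were Cebpb, Il1b, Lcn2, Runx1, Klf6 and Zeb1. All of these restate the same group difference, and the groups did not overlap in 57.4% of all genes, so they show no link between genes and markers. The part of cell composition in these results was not tested.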

How the data were processed

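RNA from 6 mouse livers (3 I/R, 3 I/R+Rk2) was sequenced. Per the labels and the submitters' processing notes, FastQC 0.11.5, HISAT2 2.2.1 and StringTie 1.3.3 were used with mm10. The annotation, the strand setting and the counting step are not given in the sources used here. The authors deposited whole-number counts per gene and FPKM (fragments per kilobase of transcript, scaled to library size). The counts look like StringTie estimates made whole, which was not tested.

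Counts were tested with edgeR 4.0.16 (quasi-likelihood test, TMM scaling, filterByExpr, no covariates) on all 6 libraries, with Benjamini-Hochberg adjustment over 12411 genes. The fits were tested on simulated counts. CPM values use TMM-scaled library sizes. Intervals are 95% intervals of the log2 fold change, not ranges of single livers. Standard errors were derived from the quasi-likelihood F statistic, which draws on the spread between these livers and on that of other genes. Whether the livers of a group were from separate experiments is not stated. Libraries of 1 group differed by 31.4 to 74.8 chi-square units per degree of freedom, so each was counted once. Implied length is the count divided by FPKM, scaled per library over 596 single-transcript genes. Positions and transcripts are from GENCODE M21.

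The members and lists were chosen with earlier results of these data known. Named genes are the members, up to 3 genes per list with the smallest p among those called with a mean of at least 100 counts in the higher group, and the gene most like each member. A few genes that meet this rule are not reported here but were kept in all fits and totals. Xbp1, Cebpg, Cebpe, Il6, Stat3, Jak1, Nr3c1, Creb1, Saa1, Apoa4, Igfbp1, Afp, Pdpn, Tmem189 and Spidr were named outside that rule after their values were seen. Spp1, Epcam, Krt7, Dcn and Col3a1 were so too. Alternatives used DESeq2 1.42.0, limma 3.58.1 on log2 FPKM, other scalings and filters, length and GC trends, a replicate block and leaving out each liver. Same-numbered livers did not deviate together (correlations of -0.056, 0.005 and -0.058).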

Additional observations from a re-analysis of the deposited data

How the results depend on the processing

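Over 20 alternatives, 138 values that answer a comparison stayed within limits and 10 moved, while of the values of single genes, lists and levels 679 stayed, 101 moved, 8 reversed, 1 lost its call and 1 gained one. The number of all genes called higher was 1320 with library size alone, 1172 with limma on log2(FPKM + 1), 1148 with a pseudocount of 0.1 and 1124 without a filter, against 2516. In those settings, the number of all genes called lower was 3481, 2670, 2633 and 3009, against 2938. Library size alone moved the median of all genes to -0.17, and Hnf4a to -0.68. The number of all genes called with fold above 2 was 901 with limma on log2(FPKM + 1), or 921 without a filter, against 1813. Leaving out 1 liver at a time gave 1640 (without I/R+Rk2 replicate 2) to 2401 genes called higher, with 1645 when I/R replicate 3 was left out, 1 to 3 members called lower and 0 to 1 members called with a fold above 2. The single call lost was Cebpb without I/R replicate 1, and the single call gained was Cebpd without I/R replicate 2. The Onecut1 log2 fold change reversed to -0.20 with the replicate block and to -0.0988 with the block and the length trend removed, and lay between -1.20 (lacking I/R+Rk2 replicate 1) and 0.97 with single livers left out. The Prox1 log2 fold change reversed to 0.18 with the length trend removed and to 0.23 with the replicate block as well, and lay between -0.35 and 0.28 (lacking I/R replicate 1) in fits on 5 livers. It was 0.0010 lacking I/R+Rk2 replicate 1. The Foxa1 to Foxa2 log2 ratio lay between -0.26 and 0.056 (lacking I/R+Rk2 replicate 1) in such subsets. The cause of these shifts was not tested. With the replicate block 4713 genes were called, and the same 3 members, and the livers share only a number, so no pairing is implied. If the counts are rounded estimates, genes with few counts are less certain.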

Other observations

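Among 136 genes of the lists, the gene whose log2(CPM + 1) followed each member most closely over the 6 libraries was found, as a description. Points share the group difference and each liver's library. Each r is the largest of 136 over only 6 libraries, so it is high by selection, and no link between genes was tested. Pearson's r was 0.994 for Cebpa with Ttr, 0.992 for Foxa1 with Cyp7a1, 0.985 for Cebpb with the ceruloplasmin gene Cp, 0.963 for Foxa2 with Gata4, 0.956 for Hnf4a with Trib1, 0.926 for Onecut1 with Krt19, 0.925 for Foxa3 with Hpx, 0.876 for Prox1 with Cpt1a and 0.862 for Cebpd with Sox9. Cyp7a1, the rate-limiting enzyme of bile acid synthesis, had 3.44, 3.67 and 2.15 CPM in I/R and 31.0, 15.7 and 3.87 CPM in I/R+Rk2, the same order of the I/R+Rk2 livers as Foxa1. Cp had 999, 941 and 996 CPM in I/R and 744, 827 and 911 CPM in I/R+Rk2, the same order of the I/R+Rk2 livers as Cebpb. Cyp7a1 and Cp were picked for their high r, so these matching orders are no separate evidence.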
